A study of Saccharomyces cerevisiae with 95 samples.

Results

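The alcohol dehydrogenase genes described here are *ADH1* (YOL086C), *ADH2* (YMR303C), *ADH3* (YMR083W), *ADH5* (YBR145W) and *SFA1* (YDL168W). They were taken by their ORF identifiers and not by any measured value, and they make up 5 of the 6132 ORFs in the data. Alcohol dehydrogenases of budding yeast interconvert acetaldehyde and ethanol with NADH or NAD+. Adh1 is the main fermentative enzyme of the cytosol and makes ethanol in cells growing on glucose, whereas Adh2 is known as the glucose-repressed enzyme that turns ethanol back into acetaldehyde, and its gene is a classical target of the activator Adr1. Adh3 is the mitochondrial enzyme, Adh5 is a minor isoenzyme, and Sfa1 is a bifunctional enzyme that also oxidises the glutathione adduct of formaldehyde.

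The series holds 95 arrays with 2 colours, each comparing labelled cDNA from a *Saccharomyces cerevisiae* culture (Cy5) with that of a reference culture (Cy3), and it was made to ask whether the transcription programme tied to growth follows the growth rate itself or the environment. Of these, 5 arrays compared glycerol with glucose cultures in log phase (3 of *adh1* cells, 2 of wild type), 7 followed *adh1* cells after transfer to glycerol (4 time points) or to fresh glucose (3 time points) against an overnight culture, and 83 followed 10 chemostat courses against a batch culture in the same limiting medium. The values are log2 ratios of sample over reference.

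All wild-type log-phase and glucose-limited cultures were the haploid strain BY4741, and the *adh1* cells were BY4741 carrying ADH1::KANMX, so that *ADH1* was deleted in both channels of every *adh1* array. The labels name BY4741 for the histidine-limited chemostats too, but the study's methods name for them a W303-1 strain with bar1::P_ADH1-CFP-KANMX, in which a copy of the *ADH1* promoter drives CFP. Log-phase and transfer cultures grew in rich medium with glucose or with 2% glycerol. Glucose-limited chemostats (0.02% glucose, 30 degrees) received DTT (6 mM), NaCl (0.4 M), H2O2 (0.6 mM), a shift to 39 degrees for 5 h, or glucose to 0.04%. Histidine-limited chemostats (2 mg/l histidine, 30 degrees) received DTT (6 mM), NaCl (0.31 M), clotrimazole (10 µM), a shift to 37 degrees for 5 h, or histidine to 4 mg/l. Their medium held 2% glucose by the study's methods. Replicates are not said to be separate cultures, so the p-values of the log-phase arrays measure only the spread between these arrays, and dyes were not swapped. The courses gave 12 steady-state arrays and 71 arrays after the onset of a perturbation, 35 under glucose and 36 under histidine limitation, and a course counted as 1 replicate.

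Array medians lay between -0.03 and 0.03, and 5071 to 6132 ORFs were measured per array. *ADH1*, *ADH2* and *SFA1* had a value on all 95 arrays, *ADH3* on 94 and *ADH5* on 93, and the missing values all fell on log-phase arrays. The arrays carried PCR products of ORFs, so that the spots of *ADH1* and *ADH2*, whose sequences are closely related, may each bind cDNA of both genes. Their signals cannot be told apart here, and the *ADH1* spot does not check the deletion because both channels of an *adh1* array came from the mutant. By the labels *ADH1* was deleted there, so the values of its spot on *adh1* arrays are not read as *ADH1* transcript. What that spot bound was not tested. On the wild-type and chemostat arrays too, values given for *ADH1* or *ADH2* are those of their spots. Gene counts there include both spots, which may not be separate.

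In log phase, the *ADH1* and *ADH2* spots rose on glycerol by more than 5 log2 units in *adh1* cells and by less than 0.5 in wild type, where only the former passed the test. *ADH3* rose in *adh1* cells and fell in wild type. The *ADH1* ORF gave log2 ratios of glycerol over glucose of 5.60, 5.43 and 5.32 in *adh1* cells and of 0.11 and 0.85 in wild type. *ADH2*, the glucose-repressed isoenzyme, gave 5.86, 5.65 and 5.27 in *adh1* cells and 0.02 and 0.55 in wild type. On both ORFs every mutant array lay far above both wild-type arrays.

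The limma mean in *adh1* cells was 5.45 for the *ADH1* spot (standard error 0.14, 43.6-fold) and 5.59 for the *ADH2* spot (standard error 0.14, 48.2-fold), each with a Benjamini-Hochberg adjusted p of 1.22e-06. In wild type *ADH2* had a limma mean of 0.28 (95% interval -0.13 to 0.70) and did not pass (Benjamini-Hochberg adjusted p = 0.200). *ADH1* had 0.48 in wild type (standard error 0.17, limma Benjamini-Hochberg adjusted p = 0.0449), a call that was lost without wild-type array 2 (0.11) and without any *adh1* array, with an adjusted p of up to 0.526. The difference between the strains was 4.97 for the *ADH1* spot and 5.31 for the *ADH2* spot (limma Benjamini-Hochberg adjusted p = 6.08e-05 for both), or 31.3-fold and 39.6-fold.

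*SFA1*, the formaldehyde-detoxifying member, stayed near 0 in the mutant, with -0.08, -0.11 and -0.07 in the 3 arrays, against 0.81 and 0.16 in wild type. Its wild-type values thus lay above all mutant values, and its limma mean of 0.49 in wild type passed the test (Benjamini-Hochberg adjusted p = 0.0262), but not without wild-type array 1 (0.17, adjusted p = 0.273). The difference between strains, -0.57 (95% interval -1.03 to -0.12), did not pass (limma Benjamini-Hochberg adjusted p = 0.0690), but it was -0.89 and called without wild-type array 2 (adjusted p = 0.00629) and -0.25 without wild-type array 1 (adjusted p = 0.221). Calls were common in this comparison. Among the 4827 ORFs measured on all 5 log-phase arrays, limma called 63.1% in *adh1* cells, 60.7% in wild type and 25.6% for the difference. Of the 3 dehydrogenase spots with all 5 values, 2 were called in each of these comparisons. In *adh1* cells and for the difference these were the spots of *ADH1* and *ADH2*, and the former does not count as a separate gene in the mutant.

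*ADH3* and *ADH5* each lacked values and were fitted only where missing values were allowed. *ADH3*, which encodes the mitochondrial enzyme, gave 0.59 and 0.49 on the *adh1* arrays that measured it and -1.11 and -0.57 in wild type. *ADH5* gave 0.78 and 1.30 on the measured *adh1* arrays and -0.60 on the wild-type array that measured it. The groups did not overlap for either gene, but with at most 2 arrays per strain this says little. How many of all ORFs did the same was not counted.

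Over the 5397 ORFs of that fit, limma called 61.2% in *adh1* cells, 59.1% in wild type and 24% for the difference. There *ADH3* rose in *adh1* cells by 0.54 (Benjamini-Hochberg adjusted p = 0.0196, n = 2 arrays) and fell by 0.84 in wild type (adjusted p = 0.0039, n = 2). *ADH5* rose by 1.04 in *adh1* cells (limma Benjamini-Hochberg adjusted p = 0.00335, n = 2), and its wild-type value of -0.60 came from 1 array and did not pass (adjusted p = 0.0639). The strains differed by 1.38 for *ADH3* (limma Benjamini-Hochberg adjusted p = 0.00808). For *ADH5* the difference was 1.64 (limma Benjamini-Hochberg adjusted p = 0.0150), but with 1 wild-type array its spread comes from the *adh1* arrays and the moderation across ORFs, and the lone wild-type array is assumed to vary like them.

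**Figure D1:**
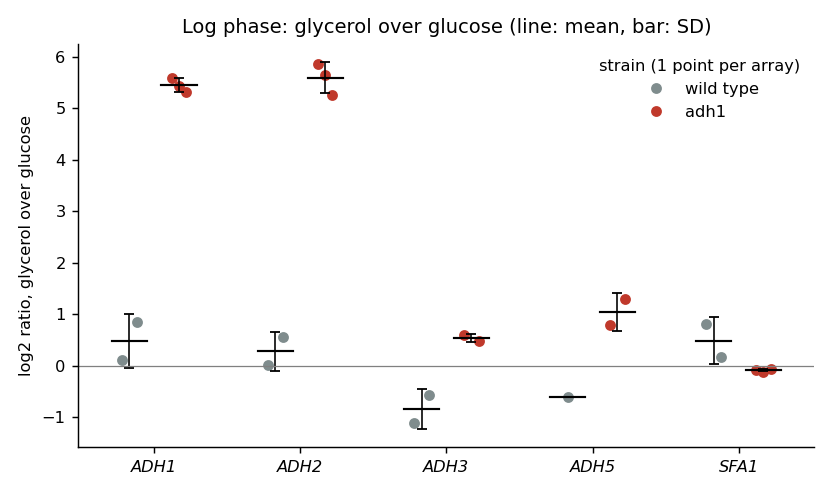
Log2 ratio of glycerol over glucose in log phase for each alcohol dehydrogenase gene (x axis), with 1 point per array, wild type in grey and *adh1* in red; black lines are means and bars are SD where 2 or more arrays had a value. The 3 *adh1* arrays sat between 5.27 and 5.86 for *ADH1* and *ADH2*, and no wild-type value was above 0.85.

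Of 10 genes listed as Adr1 targets, 9 could be tested, and 8 rose on glycerol in *adh1* cells (median 3.30, with -0.04 over all ORFs) and 8 in wild type (median 2.18, with -0.05 over all ORFs), while *CTA1*, the peroxisomal catalase, fell by 0.90 in wild type. The list was led by *ALD4*, the main mitochondrial aldehyde dehydrogenase (5.21 in *adh1*, 5.06 in wild type), with *ADY2*, an acetate transporter, next in *adh1* cells (4.02) and *POT1*, the peroxisomal thiolase, next in wild type (3.19). So the *ADH2* spot in wild type, at 0.28, lay below each of the 8 listed targets that rose there, which spanned 1.80 to 5.06. That spot may also bind *ADH1* cDNA in wild type, so its ratio need not be that of *ADH2* alone. This was not tested. *ADR1* itself fell by 0.62 in *adh1* cells and by 0.75 in wild type.

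Of the pyruvate decarboxylase, aldehyde dehydrogenase and acetyl-CoA synthetase genes, which make and use acetaldehyde, 8 were tested in log phase, with 2 higher and 4 lower in *adh1* cells and 2 higher and 2 lower in wild type, where 63.1% and 60.7% of all ORFs were called. The pyruvate decarboxylase genes *PDC6* (-4.72) and *PDC1* (-4.49) fell furthest there, and they were lower in the mutant than in wild type (-5.04 and -4.62 for the difference of the log2 ratios). Besides these genes, all 3 of the α-cell-specific genes that were tested fell in *adh1* cells on glycerol (median -4.85), from -3.49 for *STE3* to -5.21 for *SAG1*, on arrays of a strain that is *MAT*a by the study's methods. On each of the 2 wild-type arrays the mean of those with a value was -0.07. Of 6 genes specific to a-cells, 6 were called lower on glycerol in *adh1* cells (median -1.66) and 5 in wild type (median -1.20). The part of both sets in the *adh1* results of the dehydrogenase genes was not tested.

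When *adh1* cells were moved to glycerol, the spots of *ADH1*, *ADH2* and *ADH5* were far above the overnight culture from 1 h on, and those of *ADH3* and *SFA1* were not. Each time point is 1 array, so that these are values without a test. *ADH1* gave 0.54, 3.46, 4.82 and 3.53 at 0.5, 1, 2 and 4 h. *ADH2* gave -0.25, 3.43, 3.72 and 2.44, and *ADH5* gave -0.62, 1.72, 2.61 and 2.66. *ADH1* and *ADH2* thus were highest at 2 h, where the former ranked 5th and the latter 16th of 5968 ORFs, and *ADH5* was still as high at 4 h, where it ranked 36th of 5940.

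The spots of these 3 of the 5 genes lay at least 2-fold above the overnight culture at 1, 2 and 4 h, as did 9.98%, 9.17% and 6.58% of all ORFs at these times. With *ADH1* deleted in both channels, its spot does not count as a separate gene here. *ADH3* gave -0.14, 0.43, -0.35 and 0.81 over the same times, and *SFA1* gave 0.51, 0.14, 0.73 and -0.43, with no value reaching 2-fold in either direction. In fresh glucose, *ADH1* gave 0.12, 0.63 and 0.19 and *ADH2* gave -0.12, -0.02 and -0.51 at 0.5, 2 and 4 h, and both thus stayed within 2-fold of the overnight culture. At 2 h in glucose it was *ADH3* (1.31) and *ADH5* (1.04) that were at least 2-fold higher, as were 8.89% of ORFs, whereas *SFA1* was lower at 2 h (-1.09) and 4 h (-0.98).

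At matched times, glycerol minus glucose was 0.43, 4.19 and 3.34 for *ADH1* and -0.14, 3.74 and 2.95 for *ADH2* at 0.5, 2 and 4 h. *ADH5* differed by -0.38, 1.57 and 2.49. *ADH3* was lower on glycerol than on glucose at 2 h by -1.66 and higher at 4 h by 0.53, so that it had no steady direction, and *SFA1* was higher on glycerol at all 3 times by 0.85, 1.81 and 0.55. The α-cell genes moved on these arrays as well, with an array mean of the 4 genes between -3.08 and -0.27 on glycerol and between 0.50 and 0.68 on glucose. For the 6 a-cell genes the array mean lay between -0.66 and -0.16 on glycerol and between -0.50 and -0.18 on glucose. The part of both sets in these values was not tested.

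**Figure D2:**
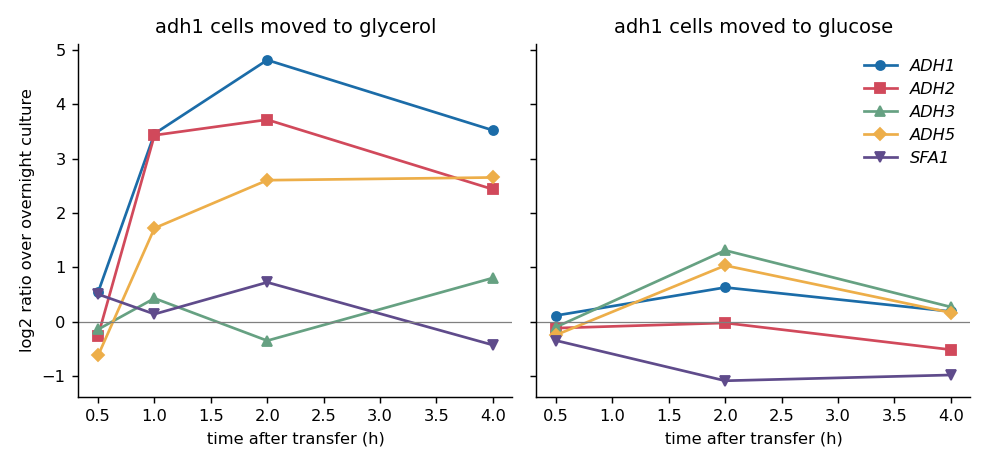
Log2 ratio over the overnight culture (y axis) against the time after transfer in h (x axis) for *adh1* cells moved to glycerol (left) or fresh glucose (right), with 1 line per gene and 1 point per array. On glycerol *ADH1* reached 4.82 and *ADH2* 3.72 at 2 h, whereas on glucose both stayed between -0.51 and 0.63.

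In the chemostats before any perturbation, the genes of the *ADH* family were lower than in the batch culture under glucose limitation, and none was called different from it under histidine limitation. By the study's methods the batch cells were harvested in late log phase. The study likens steady-state expression to that of a batch culture about to run out of the nutrient. Over the 5 glucose-limited courses (DTT, heat shock, NaCl, H2O2 and glucose addition), *ADH1* gave -0.44, -0.30, -0.43, -0.49 and -0.93 before the onset. *ADH2* gave -0.54, -1.19, -0.31, -1.09 and -0.83, and *ADH3* gave -0.51, -0.60, -0.47, -0.83 and -1.21. All of these values lay below 0, with a spread among courses from -0.31 to -1.19 for *ADH2*.

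The means were -0.52 ± 0.24 for *ADH1*, -0.79 ± 0.37 for *ADH2*, -0.72 ± 0.30 for *ADH3* and -0.43 ± 0.30 for *ADH5* (SD, n = 5 courses). limma called the spots of these 4 genes lower, with Benjamini-Hochberg adjusted p of 0.00124, 0.000377, 0.000266 and 0.0068, against 28.7% of all ORFs called in either direction, and the median estimate over the 5 dehydrogenase genes was -0.52 with 0.00 over all ORFs. The batch culture was a common reference, so its own spread is left out of the p-values of steady state over batch culture. An error of that reference would shift all courses together. *SFA1*, at -0.08 ± 0.28, had values on both sides of 0 and was not called (limma Benjamini-Hochberg adjusted p = 0.563).

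Under histidine limitation, the 4 courses with arrays before the onset gave -0.01 ± 0.12 for *ADH1*, -0.08 ± 0.07 for *ADH2*, -0.02 ± 0.07 for *ADH3*, -0.25 ± 0.10 for *ADH5* and -0.06 ± 0.12 for *SFA1* (SD, n = 4 courses). None of the 5 genes was called by limma, against 34.7% of all ORFs, and the lowest adjusted p was that of *ADH5* (Benjamini-Hochberg adjusted p = 0.0991), which passed when the histidine-limited courses were fitted alone (0.0376). In the 3 histidine-limited courses with 2 steady-state arrays each, *ADH1* differed by at most 0.04 and the 5 genes by at most 0.32 between such arrays. These pairs are time points of 1 course, 0.79 to 3.1 h apart, and not separate cultures. Glucose-limited courses had no such pair.

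The limitations differed by -0.50 for *ADH1* (95% interval -0.79 to -0.21), by -0.71 for *ADH2* (-1.08 to -0.34) and by -0.70 for *ADH3* (-1.02 to -0.38), glucose minus histidine. limma called the spots of these 3 of 5 genes (Benjamini-Hochberg adjusted p = 0.0126, 0.0073 and 0.00365), against 35% of all ORFs. For *ADH5* (-0.18, 95% interval -0.50 to 0.14) and *SFA1* (-0.02, 95% interval -0.34 to 0.29) no difference was detectable. Limitation, glucose in the medium, strain and batch culture changed together, so that their shares in this difference cannot be told apart. Among the listed relatives, *ADH6* and *ADH7*, which encode NADPH-dependent alcohol dehydrogenases, went the other way and were higher than in batch culture in both chemostats, at 0.84 and 0.59 under glucose and 0.66 and 0.60 under histidine limitation.

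In the first array after the onset of stress, *SFA1* rose and the *ADH* genes showed no common direction. The early change of *SFA1* was 0.33 for DTT, 1.14 for NaCl, 1.82 for H2O2 and -0.003 for heat shock under glucose limitation, and 0.90 for DTT, 1.93 for NaCl and 0.22 for heat shock under histidine limitation. It was thus highest with salt and peroxide, near 0 with heat at 39 degrees, and above 0 in 6 of 7 courses. The limma mean was 0.91 (standard error 0.25, Benjamini-Hochberg adjusted p = 0.0399), and *SFA1* was the only one of the 5 genes called, against 14.8% of all ORFs.

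That call was lost when any course but glucose-limited DTT was left out (adjusted p up to 0.106), although the mean then stayed between 0.74 and 1.06. In the same arrays *ADH1* changed by 0.00 ± 0.23, *ADH2* by 0.13 ± 0.41, *ADH3* by -0.12 ± 0.56 and *ADH5* by 0.21 ± 0.15 (SD, n = 7 courses), none of which passed (limma, Benjamini-Hochberg). Like *SFA1*, *ADH5* was above 0 in 6 of 7 courses, but by less. *ADH3* spread most among the *ADH* genes, from -0.94 with NaCl under glucose limitation to 0.44 with heat shock under the same limitation. The early changes of the 3 stresses shared by both chemostats did not separate the limitations for any of the 5 genes, where limma called 0% of ORFs (526 at an unadjusted p under 0.05). For *SFA1* this difference was -0.52 (95% interval -1.13 to 0.08), and NaCl doses and temperatures were not matched.

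On later arrays the values of *SFA1* differed between courses. With H2O2 it was 1.82 at 0.25 h, 1.20 at 1.2 h and -0.04 at 2.83 h, and then lay below its steady state, at -0.58 at 13.5 h and -0.51 at 19.67 h. With NaCl under glucose limitation it was highest at 0.75 h (1.78) and still 0.97 at 1.75 h, whereas under histidine limitation it was 1.93 at 0.23 h and 0.28 at 1.82 h. With DTT under histidine limitation it was 1.69 at 1 h, 1.62 at 3.1 h and 1.19 at 6.55 h, and thus stayed high longest there.

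No array preceded the onset of DTT under histidine limitation, and changes in that course are against the mean steady state of the other histidine-limited courses. With DTT under glucose limitation *SFA1* was highest at 4.95 h (0.69). With heat shock it was highest at 4.88 h under histidine limitation (0.76) and lowest at 6.33 h under glucose limitation (-0.43). Clotrimazole and histidine addition left it between -0.20 and 0.39. YJL068C, the S-formylglutathione hydrolase that acts after Sfa1 on formaldehyde, had an early mean of 0.51 and was not called (limma).

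**Figure D3:**
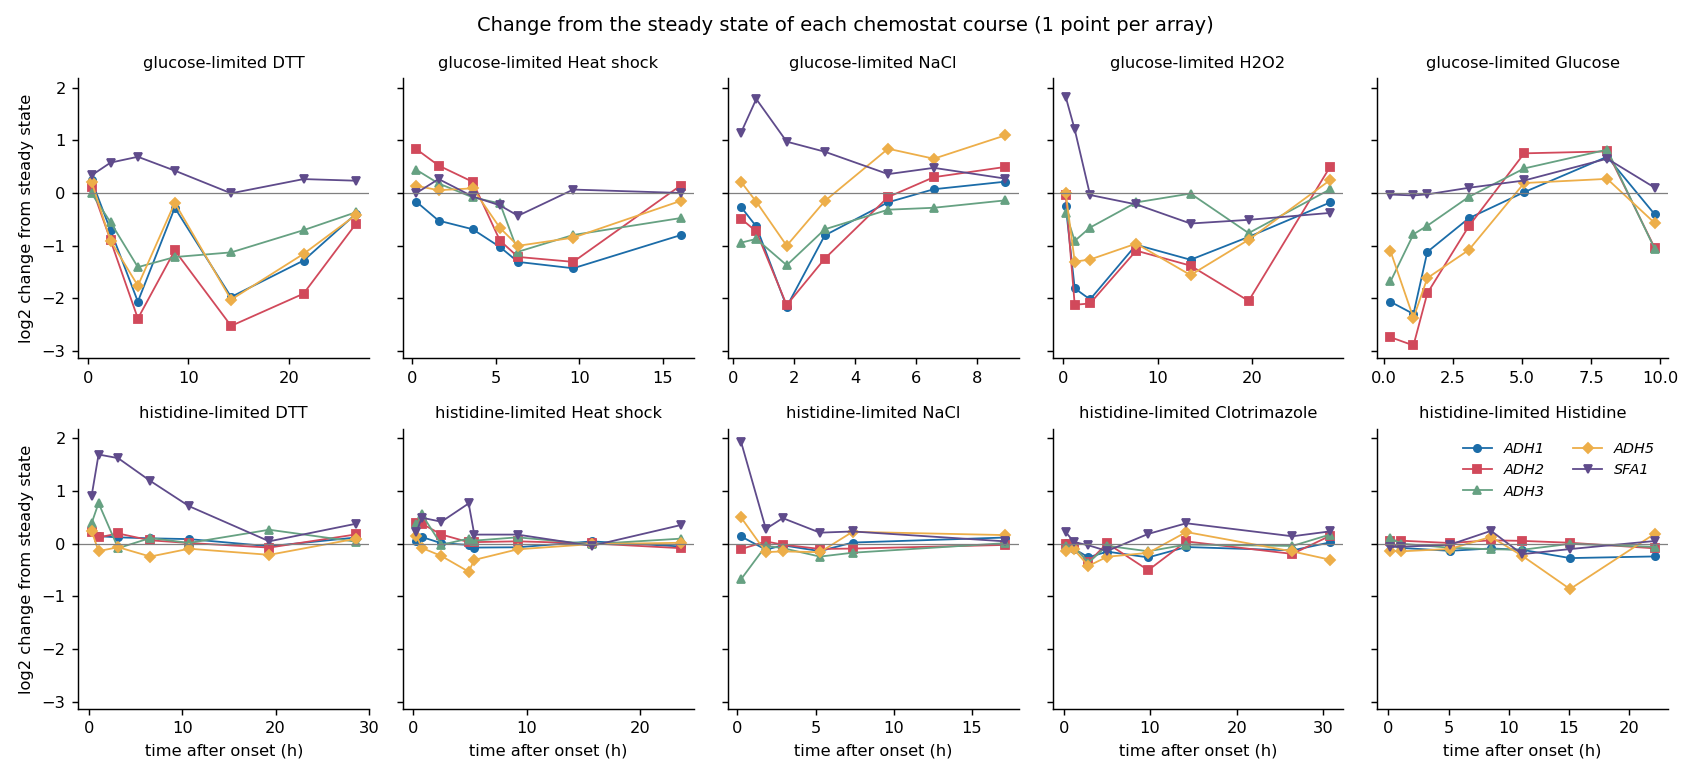
Log2 change from the steady state (y axis) against the time after the onset in h (x axis) for the 10 chemostat courses, glucose-limited in the upper row and histidine-limited in the lower row, with 1 line per gene and 1 point per array. *ADH1*, *ADH2*, *ADH3* and *ADH5* lay well below 0 on many arrays of the upper row, with -2.89 for *ADH2* as the lowest value, and stayed between -0.86 and 0.77 in the lower row, while *SFA1* was high early in both, up to 1.93.

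Later in the glucose-limited courses, *ADH1*, *ADH2* and *ADH5* were mostly low on the same arrays, whereas *ADH3* followed them on some arrays only. With DTT, *ADH1* changed by 0.24, -0.71, -2.06, -0.28, -1.97, -1.28 and -0.40 at 0.33, 2.22, 4.95, 8.63, 14.25, 21.48 and 26.7 h. *ADH2* gave 0.12, -0.90, -2.38, -1.09, -2.52, -1.91 and -0.59 on these arrays. Both genes had their lowest values at 4.95 and 14.25 h, with the array at 8.63 h well above them, and *ADH5* repeated this order with -1.76, -0.19 and -2.02 at these 3 times. *ADH3* did not, with -1.41, -1.22 and -1.13.

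With NaCl the low point came at 1.75 h, where *ADH1* was at -2.16, *ADH2* at -2.13, *ADH3* at -1.37 and *ADH5* at -1.001. By the last array at 8.93 h they were at 0.21, 0.49, -0.14 and 1.09, so that all but *ADH3* had passed their steady state. With H2O2 both *ADH1* (-1.81 and -2.02) and *ADH2* (-2.12 and -2.10) were low at 1.2 and 2.83 h, and by 28.32 h they were at -0.18 and 0.50. At 13.5 h *ADH5* had its lowest value there (-1.56), while *ADH3* was at -0.01. *ADH2* was again low at 19.67 h (-2.05, the 8th lowest of 6132 ORFs on that array).

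In changes from the steady state, heat shock differed from the other stresses in its first hours. *ADH2* was above its steady state (0.83, 0.52 and 0.21 at 0.25, 1.58 and 3.62 h) while *ADH1* was below it (-0.17, -0.52 and -0.69). That steady state is 1 array, at -1.19 over the batch culture for *ADH2* and -0.30 for *ADH1*. As ratios over the batch culture the spots were alike at these times, with -0.36, -0.67 and -0.98 for *ADH2* and -0.46, -0.82 and -0.99 for *ADH1*. The opposite signs thus rest on that array. The heating ended after 5 h, and the lowest values came afterwards, at 6.33 or 9.63 h, with -1.43 for *ADH1*, -1.31 for *ADH2*, -1.12 for *ADH3* and -1.003 for *ADH5*. Each of these points is 1 array of 1 culture.

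After the addition of glucose the low values came on the first array. At 0.25 h *ADH1* was at -2.06, *ADH2* at -2.74, *ADH3* at -1.68 and *ADH5* at -1.10, so that the spots of 4 of the 5 genes were at least 2-fold lower, as were 9.85% of all ORFs. At 1.08 h *ADH1* (-2.30), *ADH2* (-2.89) and *ADH5* (-2.37) were lower still, the spots of 3 of the 5 genes at least 2-fold lower against 3.96% of ORFs, and *ADH2* was the 15th lowest of 6132. The *ADH1* and *ADH2* spots may share cDNA, so a fall of the *ADH1* spot need not be one of *ADH1* transcript. *ADH3* was already back at -0.78.

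All 4 genes passed their steady state between 3.08 and 5.08 h, reached 0.69, 0.79, 0.82 and 0.27 at 8.08 h, and lay below it again at 9.8 h with -0.41, -1.05, -1.06 and -0.57. *SFA1* was not low on these arrays and lay between -0.05 and 0.65 over the 7 arrays. The addition of histidine, with the same design in the other chemostat, left *ADH1* between -0.28 and -0.01 and *ADH2* between -0.09 and 0.06. The only histidine-addition value beyond 0.3 in either direction was *ADH5* at 15.08 h (-0.86).

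Under histidine limitation the spots of the fermentative and the glucose-repressed gene stayed close to their steady state. Over 36 arrays *ADH1* ranged from -0.28 to 0.27 (median -0.04) and *ADH2* from -0.51 to 0.38 (median 0.02), where the 35 glucose-limited arrays ranged from -2.30 to 0.69 (median -0.71) and from -2.89 to 0.83 (median -0.90). *ADH1* was at least 2-fold lower on 13 of 35 glucose-limited arrays and on 0 of 36 histidine-limited arrays, and *ADH2* on 17 and 0. *ADH3* moved early under histidine limitation, to 0.77 with DTT at 1 h and to -0.68 with NaCl at 0.23 h, and lay between -0.36 and 0.26 on the arrays after 1 h.

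The mean change over a glucose-limited course was -0.83 ± 0.19 for *ADH1*, -0.88 ± 0.46 for *ADH2*, -0.51 ± 0.20 for *ADH3* and -0.55 ± 0.48 for *ADH5* (SD, n = 5 courses), and below 0 in all 5 courses except for *ADH5* with NaCl (0.21). Over the 5 histidine-limited courses the same means were -0.03 ± 0.10, 0.01 ± 0.10, 0.01 ± 0.17 and -0.09 ± 0.10. The courses of both limitations did not overlap for *ADH1*, *ADH2* and *ADH3*, and for how many of all ORFs this holds was not counted. *SFA1* averaged 0.29 ± 0.33 and 0.38 ± 0.37, so that its courses overlapped over most of their range.

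In a comparison added after these courses were seen, limma called the difference between the limitations for *ADH1* (-0.80, standard error 0.12, Benjamini-Hochberg adjusted p = 0.0055), *ADH2* (-0.90, standard error 0.19, adjusted p = 0.0205) and *ADH3* (-0.52, standard error 0.13, adjusted p = 0.0368). These are the spots of 3 of 5 genes against 5.15% of all ORFs, and those of *ADH1* and *ADH2* may share cDNA. *ADH5* (-0.45, 95% interval -0.87 to -0.04) and *SFA1* (-0.09, 95% interval -0.51 to 0.34) did not pass (limma Benjamini-Hochberg adjusted p = 0.183 and 0.831). *ADH5* was called without glucose-limited NaCl (-0.64, adjusted p = 0.0182), with ratios against the batch culture (-0.64, adjusted p = 0.00136) and with a steady state shared by the limitation (-0.46, adjusted p = 0.0301). With only the 3 stresses given to both chemostats and the stress as a block, the sizes were -0.81, -0.76 and -0.63 and none passed (adjusted p = 0.125, 0.180 and 0.164). The *ADH2* call was also lost without glucose-limited H2O2 or without histidine-limited DTT or heat shock (adjusted p up to 0.0553), and the *ADH3* call without any course other than glucose-limited heat shock, NaCl or glucose addition (adjusted p up to 0.0964).

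Of the 10 listed Adr1 targets, 9 were lower in the glucose-limited courses in the same comparison (median -1.10, with 0.01 over all ORFs), led by *ADY2* (-2.35) and *ACS1*, the glucose-repressed acetyl-CoA synthetase (-1.87). *CAT8*, an activator of gluconeogenic genes, was higher (0.76) and was the only called gene of 7 listed regulators. *PDC5*, a pyruvate decarboxylase, was higher as well (0.84).

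Averaged over the 7 stress courses of both chemostats, no dehydrogenase gene passed, against 0.408% of ORFs called by limma. *ADH5* (-0.28 ± 0.43) was called only with ratios against the batch culture (-0.67, limma Benjamini-Hochberg adjusted p = 0.0210). *ADH1* gave -0.46 ± 0.49 and *ADH2* gave -0.45 ± 0.60 (SD, n = 7 courses), lower in 5 of 7 courses each. *SFA1* gave 0.44 ± 0.35 and was higher in 6 of 7 courses (limma Benjamini-Hochberg adjusted p = 0.0985).

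**Figure D4:**
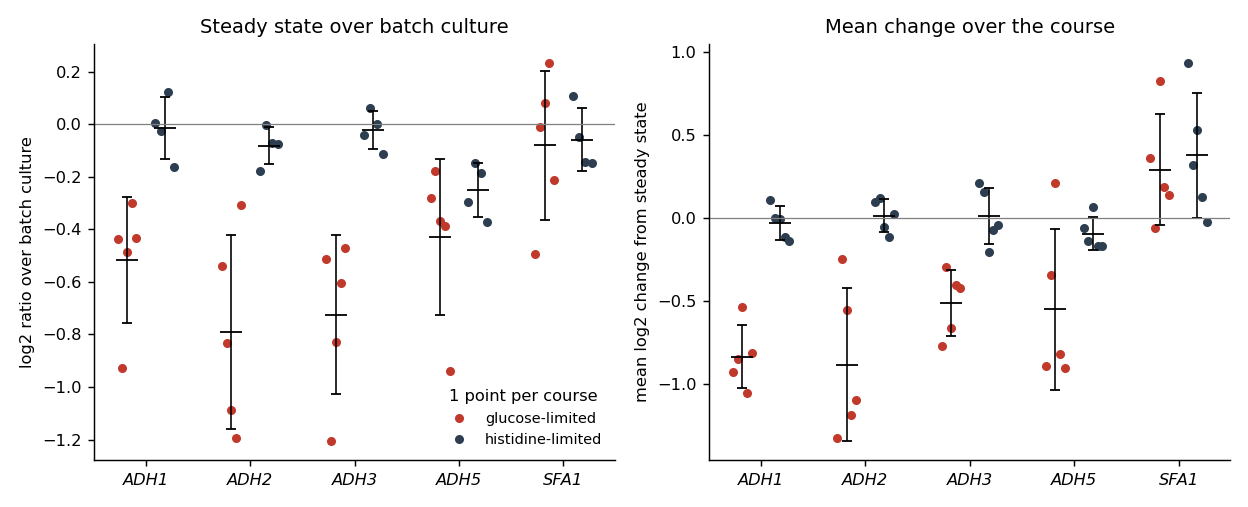
Log2 ratio of steady state over batch culture (left) and mean log2 change from the steady state over all arrays of a course (right) for each gene (x axis), with 1 point per course, glucose-limited in red and histidine-limited in dark blue; bars are mean ± SD. On the right the glucose-limited means of *ADH1* (-0.83), *ADH2* (-0.88) and *ADH3* (-0.51) lay below all their histidine-limited courses.

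Over the arrays of both chemostats together, the patterns of the *ADH* genes were close to each other, and *SFA1* stood apart. Under histidine limitation alone this grouping did not hold. Over the 71 arrays after the onset, Pearson's r was 0.91 between *ADH1* and *ADH2*, 0.85 between *ADH2* and *ADH5*, 0.83 between *ADH1* and *ADH5*, 0.82 between *ADH2* and *ADH3*, and 0.75 between *ADH1* and *ADH3*. The pair *ADH3* and *ADH5* was the loosest of these at 0.53, and the 4 pairs with *SFA1* lay between -0.04 and 0.24. The arrays of a course share a steady state and a reference culture, so that these values describe the arrays and carry no p.

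The likeness was closer within the glucose-limited courses. There r between *ADH1* and *ADH2* was 0.89 over 35 arrays, and it was 0.62 over the 36 histidine-limited arrays, on which both genes hardly varied. For *ADH2* and *ADH5* it was 0.87 and 0.12, and for *ADH3* and *ADH5* it was 0.51 and -0.12. *ADH1* and *SFA1* were at 0.14 under glucose and 0.63 under histidine limitation, where *SFA1* was thus as near to *ADH1* as *ADH2* was.

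Although the *ADH1* and *ADH2* spots moved together, their values were not the same. On the 35 glucose-limited arrays the change of *ADH1* minus that of *ADH2* ranged from -1.05 to 1.21, with *ADH1* the higher on 20, and on the 36 histidine-limited arrays it ranged from -0.33 to 0.24. In *adh1* cells on glycerol the *ADH1* spot exceeded the *ADH2* spot on all 4 transfer arrays (by 0.03 to 1.10), but on only 1 of the 3 log-phase arrays. With *ADH1* deleted there, these are differences between spots and not between genes.

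The ORFs whose changes were most like those of *ADH1* over the 71 arrays were *ADH2* (r = 0.91), *ACS1* (0.87) and *SPS19* (0.86). For *ADH2* they were *ACS1* (0.92), *ADH1* (0.91) and *ADY2* (0.91). For *ADH3* they were *ADH2* (0.82), *TIP1* (0.81) and *YIG1* (0.81), and for *ADH5* they were *ADH2* (0.85), *ADH1* (0.83) and *ADY2* (0.78). Thus *ADH2* was among the nearest of all 3 other *ADH* genes, out of 6130 ORFs compared.

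For *SFA1* the nearest were *SEC17* (0.80), YMR090W (0.79) and *YPR1* (0.77), and the nearest of the *ADH* genes was *ADH5*, at place 1590. The value for *SEC17* was 0.77 under glucose and 0.85 under histidine limitation, whereas *ACS1* followed *ADH2* at 0.90 under glucose and at 0.23 under histidine limitation.

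**Figure D5:**
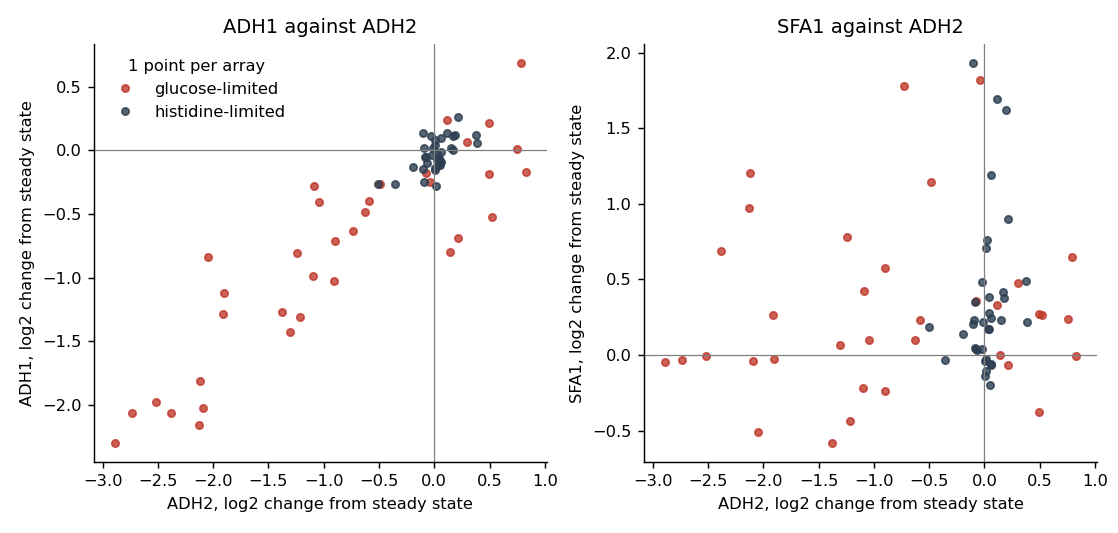
Log2 change from the steady state of *ADH1* (left, y axis) and of *SFA1* (right, y axis) against that of *ADH2* (x axis), with 1 point per array after the onset, glucose-limited in red and histidine-limited in dark blue. *ADH1* followed *ADH2* (r = 0.91 over 71 arrays) and *SFA1* did not (r = 0.11).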

How the data were processed

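The data are a table of log2 ratios for 6132 ORFs on 95 arrays. According to the study's methods, the arrays were scanned, spots were quantified with QuantArray or SpotReader, and the authors corrected the deposited log2 ratios for technical biases and normalized them. Spot intensities were not used here, so the distance of a spot from background is not known, and precision is set by how many arrays there are. Chemostat values were turned into changes from the mean of the arrays before the onset, and histidine-limited DTT, which has none, took the mean of the other histidine-limited courses.

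Tests were run with limma 3.58.1 in R 4.3.3 (lmFit and eBayes, two-sided) on all ORFs with complete values, with Benjamini-Hochberg adjustment over all ORFs tested and a threshold of 0.05. A course gave 1 value, as the first array after the onset or the mean over the course. The fits were tested on simulated data. Alternatives changed array centring, moderation, missing and zero values, the baseline, the summary of a course, the block and the arrays or courses fitted. The transfer, clotrimazole and nutrient courses have no replicates and no test. Genes named are the 5 dehydrogenases, at most 2 genes called in each direction per list and comparison, and the 3 ORFs with the highest Pearson's r with each dehydrogenase gene; other genes named were chosen after their values were seen. The genes and lists were chosen with earlier results of these data known, and the Adr1 target and acetaldehyde lists share *ACS1* and *ALD4*. Of 6132 ORFs, 5608 carried a symbol in the RefSeq table. A comparison of the genes' sequences and promoters was not run.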

Additional observations from a re-analysis of the deposited data

Results flagged for a closer look

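The steady state of *ADH5* before NaCl under glucose limitation, at -0.94 over the batch culture, lay far from the other 4 glucose-limited courses, which were between -0.39 and -0.18. Its gap to the nearest course took up 0.722 of the whole range. With 20 groups of courses examined in this way, chance alone is likely to single out about 1. The glucose-limited mean of *ADH5* was called lower without any of the courses as well (limma Benjamini-Hochberg adjusted p up to 0.0264). The change of *ADH5* after NaCl, 1.09 at 8.93 h, is measured from this low value.

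The response to glycerol differed between the strains for the spots of *ADH1* (4.97), *ADH2* (5.31) and, in the fit that allowed missing values, *ADH3* (1.38) by the tests of the difference given above. As *ADH1* was deleted in the mutant, its value is one of the spot and not of the gene. *ADH5* gave 1.64 in the latter fit, but against 1 wild-type array, so that this value rests on the spread of the *adh1* arrays and of other ORFs. The α-cell genes differed between the strains as well (3 of 3 tested, median -4.59), against 25.6% of all ORFs called. Of the 6 a-cell genes, 2 were called higher and 2 lower (median -0.02). The part of both sets was not tested.

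The limitations differed in the steady state of *ADH1* (-0.50), *ADH2* (-0.71) and *ADH3* (-0.70), and in their mean change over a course (-0.80 for *ADH1*, -0.90 for *ADH2* and -0.52 for *ADH3*, in the comparison added after the data were seen). Limitation, glucose in the medium, strain and batch culture cannot be told apart in either. For the mean change over a course the set of perturbations differed as well, and with only the stresses given to both chemostats none of these genes passed (limma).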

How the results depend on the processing

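Of 541 alternative values for the 5 genes, 484 kept direction and call, 30 lost the call, 7 gained it and 20 turned sign, none of the latter with a call. The causes were not tested unless fewer arrays or courses were fitted. With the replicate number as a block, limma called 796 ORFs for the strain difference in log phase (1237 without it). Same-numbered arrays deviated with r of 0.05 and -0.002, so they share only a number, and of the 5 genes only the wild-type call of *ADH1* was lost (limma Benjamini-Hochberg adjusted p = 0.0649). Leaving out an array gave 625 to 1129 ORFs for that difference.

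For the early response (910 ORFs), ratios against the batch culture gave 135 ORFs and leaving out a course 0 to 1228, and for its limitation difference (0 ORFs) such ratios gave 97. For the response over the course (25 ORFs), the settings gave 511 against the batch culture, 5 with the last array before the onset, 0 with a steady state shared by the limitation, 1 with the median, 43 with arrays up to 10 h, and 0 to 8 without a course. For its limitation difference (316 ORFs), they gave 2037, 629 with the shared steady state, 88 up to 10 h, 0 with matched stresses, and 109 to 514 without a course.

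Against the batch culture the early means of *ADH1*, *ADH2* and *ADH5* turned to -0.26, -0.34 and -0.19. *ADH2*'s early limitation difference (-0.01) turned to 0.0232 with the last array and 0.0720 with the shared steady state. Leaving out a course took uncalled values across 0: *SFA1* steady state, -0.159 to 0.0233 (glucose-limited) and -0.100 to 0.0820 (difference); *ADH1* and *ADH3* histidine-limited steady state, -0.0607 to 0.0346 and -0.0502 to 0.00789; *ADH1* and *ADH3* early, -0.0422 to 0.0464 and -0.208 to 0.0218; *ADH2* early limitation difference, -0.24 to 0.18; and *SFA1* course difference, -0.220 to 0.0530. Of the 15 nearest ORFs, 6 stayed with Spearman's rho, 8 with the glucose-limited courses and 1 with the histidine-limited courses alone.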

Other observations

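Clotrimazole, an inhibitor of ergosterol synthesis, was given only under histidine limitation, in 1 course of 8 arrays after the onset. *ADH1* lay between -0.26 and 0.02 and *ADH2* between -0.51 (at 9.78 h) and 0.15. *ADH5* was lowest at 2.87 h (-0.42). The arrays before the onset of this course differed from each other by 0.25 for *ADH2* and 0.32 for *ADH5*.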
